A study of Homo sapiens with 7 samples.

Results

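The MCM genes encode the minichromosome maintenance proteins, and the 8 described here are MCM2, MCM3, MCM4, MCM5, MCM6, MCM7, MCM8 and MCM10. They were taken by gene symbol, and each had 1 transcript among the 25918 transcripts and 24721 gene symbols of the deposited table. The study mapped N6-methyladenosine (m6A), a methyl mark on adenosines inside messenger RNA, by precipitating RNA fragments of about 100 nt with an m6A antibody. There were 4 libraries of precipitated RNA (m6A-IP) and 3 input libraries without antibody, all from polyadenylated RNA of untreated HepG2 cells, a human hepatocarcinoma line grown in DMEM with serum. The deposited values are 1 table for the cell line, with no column for a single library. It ranks each transcript by expression and lists where on it peaks were called and with what score. Which of the libraries gave the expression rank is not stated. Since no library has values of its own, depth is unknown, no spread over libraries can be given, and none of the differences below has a test.

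MCM2 to MCM7 form the ring-shaped helicase that is loaded on replication origins in G1 and unwinds DNA ahead of the fork in S phase. MCM10 binds this helicase and is needed for its activation, and MCM8 works with MCM9 in a separate helicase that acts in homologous recombination. Transcription of the hexamer genes is raised by E2F factors in proliferating cells. In mRNA, m6A is laid down mostly within the consensus RRACH, where R stands for a purine and H for any base but G, often near the stop codon, and it is read by proteins that affect the decay and translation of the transcript.

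The label of the cells was checked against marker genes. Of 11 hepatocyte markers, 7 were at the lowest quantile, ALB, AFP, TTR and SERPINA1 among them, and none had a peak. The other 4 were FGB at 0.619, HNF4A at 0.509, APOA1 at 0.403 and TF at 0.337. The 5 proliferation markers, among them MKI67, lay between 0.840 and 0.984. Of 5 Müllerian epithelium markers MSLN was at 0.968 with 3 peaks and MUC16 at 0.667 with 14 peaks. The others were at 0.496 or under without a peak, and 3 squamous epithelium markers, also without one, were at 0.578 or under. The cells are called HepG2 here only as the labels do.

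Of the 8 MCM genes, 6 had at least 1 listed m6A peak and 2, MCM4 and MCM8, had none. The 6 genes carried 9 peaks, and 5 of these lay in the last exon, 33 to 229 nt beyond the stop codon. The other 4 lay near the 5′ end, and none was annotated to the coding sequence by the authors. The candidate sites nearest to the peaks are shown because the positions below refer to them. Each is a 29-nt stretch, 5′ to 3′ in DNA letters, from the matched GENCODE release 29 transcript, with its GRCh38 coordinates, and capitals mark every RRACH motif in it. MCM2 had no RRACH within 50 nt of its start peak, and nothing is shown for it.
MCM2, stop codon peak, chr3:127621855-127621883, plus strand: agagcacttgatGAACTcggggtactagg
MCM3, 3′ UTR peak, chr6:52264352-52264380, minus strand: gacagtgggagaGGACAatgactattgca
MCM5, stop codon peak, chr22:35424268-35424296, plus strand: cactGGACTcatGGACTcgcccacgcctc
MCM6, stop codon peak, chr2:135840789-135840817, minus strand: accagagctgagGAACTgtggcacagcac
MCM10, stop codon peak, chr10:13209323-13209351, plus strand: acattttcccacAGACTtcctggcctcct
MCM3, start peak, chr6:52284703-52284731, minus strand: gagtcatcctggGAACCtccacgcgactt
MCM6, start peak, chr2:135876347-135876375, minus strand: ctaagcaaatatGGACCtcgcggcggcag
MCM7, 5′ UTR peak, chr7:100101323-100101351, minus strand: tccccaggagcaAGACCtctgagcccgcc

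The hexamer genes were among the most expressed transcripts of the table. The expression quantile ranks transcripts from 0 to 1, and 8139 transcripts are tied at its lowest value, 0.314. MCM7 had a quantile of 0.992, MCM5 0.991, MCM2 0.990, MCM3 0.985 and MCM4 0.983. Of all transcripts of the table, 202 ranked above MCM7. MCM6 followed at 0.919, with 2089 transcripts above it. MCM10 and MCM8, which are not part of the hexamer, were lower, at 0.757 and 0.717. The median was 0.984 for the 8 genes, against 0.591 for all coding transcripts. The order of neighbouring genes has no measured error, and in bulk RNA fewer expressing cells and less RNA per cell cannot be told apart.

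**Figure D1:**
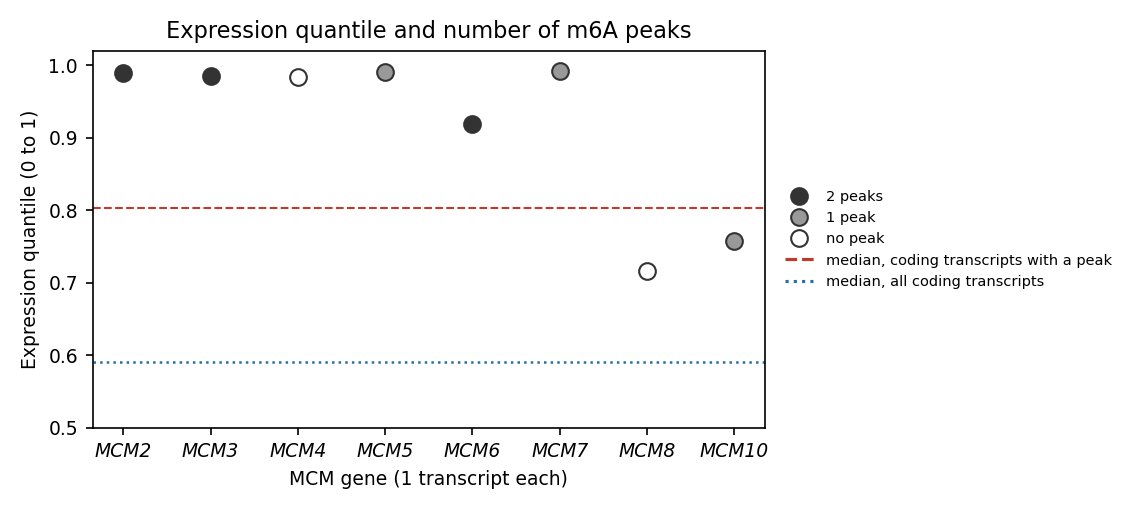
Expression quantile (0 to 1) of the transcript of each MCM gene, with the fill showing 2 peaks, 1 peak or none. Dashed and dotted lines are the medians of coding transcripts with a peak (0.803) and of all coding transcripts (0.591). The hexamer genes MCM2 to MCM7 lie above both lines, MCM4 without a peak among them, while MCM8 and MCM10 lie between the lines.

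Peaks were listed for 5 of the 6 hexamer genes and for 1 of the 2 others. Of all transcripts listed, 27.9% had a peak, and 35.0% of coding transcripts did. Among coding transcripts above the lowest quantile the share was 45.8%. At quantiles of 0.98 and over, where 5 of the MCM genes lie, it was 61.5%, at 0.9 to 0.98, the range of MCM6, 71.3%, and at 0.7 to 0.8, the range of MCM8 and MCM10, 65.1%. A count of 6 in 8 is thus near the background of transcripts of like expression, and nothing particular to the MCM genes is read from it. The 6 genes had 1.5 peaks each on average, against 1.78 for coding transcripts with a peak.

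MCM2, a hexamer subunit at the gate through which DNA enters the ring (chromosome 3, 128799943 to 128823968, plus strand), had the highest peak of the family. Gene coordinates here and in what follows come from the table, whose build is not given, with starts counted from 1. At position 2862 of the transcript, in exon 16 (773 nt), its peak scored 6.80. Of the 7200 genes with a peak, 21 had a higher top score, so that MCM2 ranked 22, and 99.7% of the 3432 peaks around stop codons scored lower. The score is the authors' own and its scale is not stated. The peak lay 90 nt beyond the stop codon, in the 3′ UTR, with 3 RRACH motifs 6 nt after and 11 and 18 nt before it. A second peak at position 99, in exon 2 (230 nt), scored only 2.05, close to the lowest score of the table, 2.00. It lay 41 nt after the first base of the start codon.

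MCM5, the subunit that forms the other side of the MCM2 gate (chromosome 22, 34126116 to 34150495, plus strand), had a single peak of score 5.14 at position 2332 in exon 17 (349 nt). It lay 33 nt beyond the stop codon, the nearest of the 5. The site shown for it holds GGACU (written with T above), the most favoured form of the consensus, at 2 places, 14 and 6 nt before the peak, and a further GGAC motif lay 49 nt after it. Of all stop codon peaks, 91.1% scored lower.

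MCM3, a regulatory subunit of the ring (chromosome 6, 52236771 to 52257541, minus strand), had its main peak farther downstream. At position 2766 in exon 17 (773 nt) it scored 5.37, lay 229 nt beyond the stop codon and was assigned to the 3′ UTR by the authors, in which 95.0% of 2547 peaks scored lower. The motif GGACA lay 7 nt before it. A start peak at position 111 in exon 1 (188 nt) scored 3.05 and fell on the first base of the start codon.

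MCM6, which with MCM4 and MCM7 makes up the catalytic core (chromosome 2, 136313666 to 136350481, minus strand), had a peak of score 4.64 at position 2592 in exon 17 (1326 nt), 50 nt beyond the stop codon. The motif GAACU lay 18 nt before it and GGACA 33 nt after it. Its start peak, at position 89 in exon 1 (183 nt), scored 3.56, and 85.0% of the 1552 start peaks of the table scored lower. The GGACC shown for it begins 2 nt after the first base of the start codon, so the motif and the start codon overlap.

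MCM7, a further subunit of the catalytic core (chromosome 7, 99528340 to 99537363, minus strand), was the most expressed of the family and was the only one whose peaks were all at the 5′ side. Its single peak, at position 479 in exon 1 (541 nt), scored 3.43 and was assigned to the 5′ UTR by the authors. It lay 32 nt before the start codon of the matched transcript with the smallest end difference, and another matching transcript has a different start codon, from which the distance would differ. The motif AGACC lay 11 nt before it and GGACU 45 nt after it. The first 298 nt of the gene overlap AP4M1, an adaptor protein subunit on the opposite strand with a quantile of 0.708, and the peak lay 181 nt outside that overlap. No source used here says whether reads were assigned by strand. The 1 peak of AP4M1 was around its own stop codon.

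MCM10 (chromosome 10, 13243587 to 13293110, plus strand) had a peak of score 4.46 at position 2786 in exon 20 (1878 nt), 60 nt beyond the stop codon. It had no GGAC within 100 nt. The nearest RRACH was AGACU, 33 nt before the peak, and 6 RRACH motifs lay within 100 nt.

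**Figure D2:**
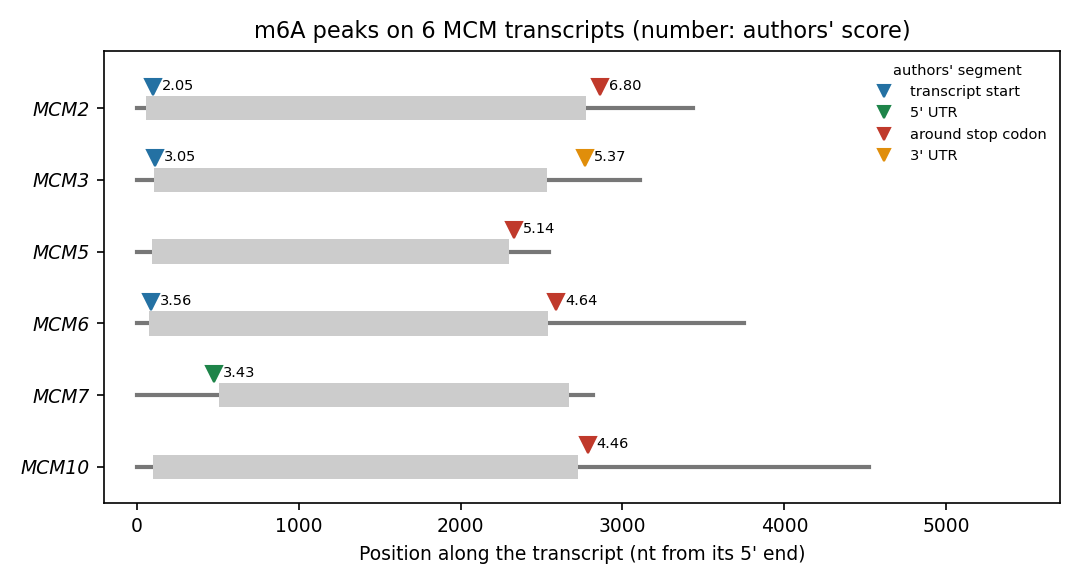
Positions of the 9 peaks along the 6 MCM transcripts with a peak, in nt from the 5′ end. Grey lines are transcripts, boxes the coding sequence, triangles peaks in the colour of the authors' segment, and numbers the authors' scores. Of the 6 transcripts, 5 have a peak just beyond the box, at 33 to 229 nt, and MCM7 has its only peak just before the box, as drawn for the matched transcript with the smallest end difference.

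Peaks by the stop codon scored above those at the 5′ end. The 5 peaks beyond the stop codon scored 4.46 to 6.80 and the 4 peaks at the 5′ side 2.05 to 3.56, so that the ranges did not overlap. In each of the 3 genes with both kinds, MCM2, MCM3 and MCM6, the peak by the stop codon was higher, by 4.76, 2.32 and 1.09. Among the 572 transcripts of the table with a start peak and a stop codon or 3′ UTR peak, the stop codon or 3′ UTR peak was higher in 73.4%, with a median difference of 0.72. All 5 MCM peaks beyond the stop codon exceeded the median of their segment, which was 3.45 around stop codons and 3.22 in the 3′ UTR. The start peaks of MCM3 and MCM6 and the 5′ UTR peak of MCM7 were also above their segments' medians of 2.73 and 2.99, and the start peak of MCM2 was below.

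**Figure D3:**
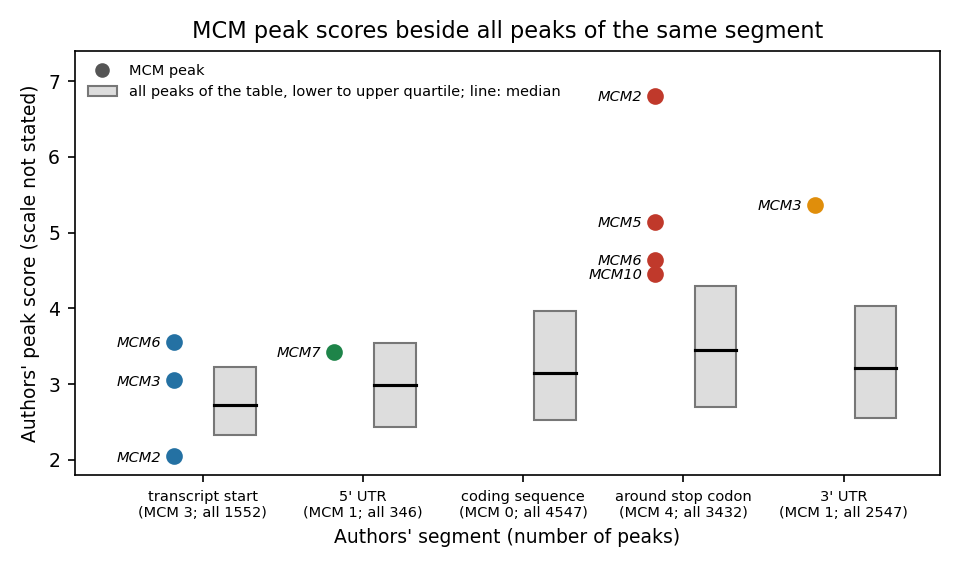
Authors' score (scale not stated) of each MCM peak by the authors' segment, as points, and all peaks of that segment, as bars from the lower to the upper quartile with the median as a line. The 4 MCM peaks around the stop codon and the 1 in the 3′ UTR lie above the bars, the MCM2 peak at 6.80 highest, while the 2.05 of MCM2 at the transcript start lies below its bar.

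A peak both at the transcript start and by the stop codon or in the 3′ UTR was found in 3 of the 8 MCM genes. These are 3 of the 6 with a peak. Of coding transcripts at quantiles of 0.98 and over, where MCM2 and MCM3 but not MCM6 lie, 9.07% had this pair. A stop codon or 3′ UTR peak was listed for 32.5% of them. These shares are not given here for the range of MCM6. Of all coding transcripts with a peak, 8.18% had it, and 63.6% had a stop codon or 3′ UTR peak, as 5 of the 6 MCM genes with a peak did. A coding sequence peak was listed for 39.6% of coding transcripts with a peak, whereas the authors assigned none to the 6 MCM genes, the start peaks of MCM2, MCM3 and MCM6 being classed by their distance from the transcript start. The 6 matched MCM transcripts had 90 internal exons, none of which reached 400 nt. The share of such long exons in other coding transcripts is not given here. Any link of exon length to the lack of coding sequence peaks was not tested. The longest internal exon was between 177 nt in MCM5 and 394 nt in MCM7.

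RRACH lay within 50 nt of 8 of the 9 MCM peaks, and of all 5 beyond the stop codon. Over all positions of the same 6 transcripts, 77.5% had RRACH within 50 nt. These are positions of the GENCODE transcripts, and that of MCM5 runs 928 nt beyond the 3′ end of the deposited transcript. Those of MCM2 and MCM7 begin 187 and 136 nt upstream of the deposited ones. No peak could be listed in such stretches. GGAC, searched in the same window whatever base followed, was present at 7 of the 9 peaks and 40.5% of all positions, and GGACU at 2 peaks and 13.8% of positions. Only the transcript strand was searched, and GGACU and most GGAC matches are also RRACH matches. A match is a description of the letters and does not show which adenosine was methylated.

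**Figure D4:**
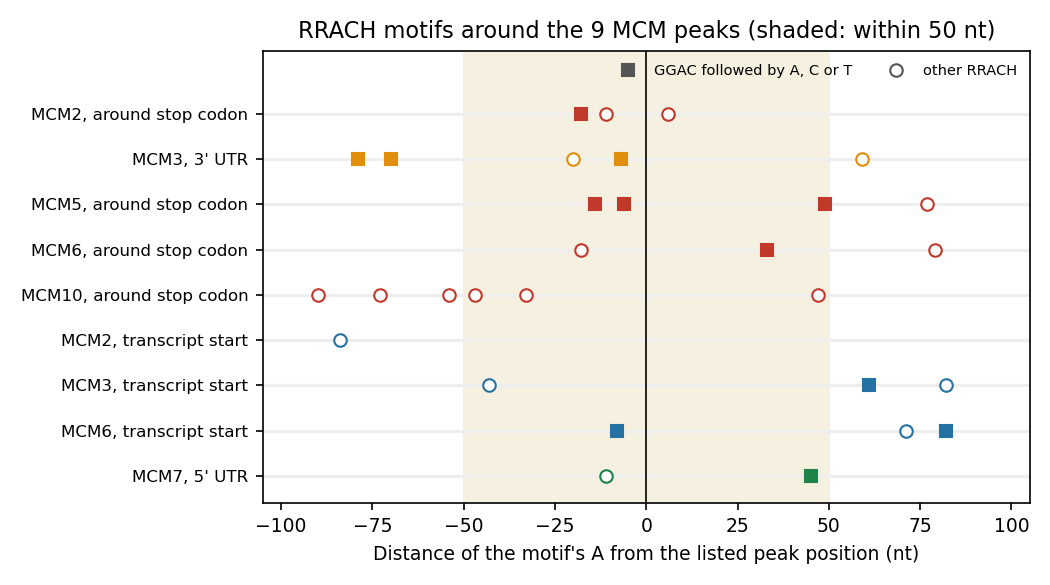
Distance in nt of each RRACH motif (its A) from the listed peak position, for the 9 MCM peaks, with filled squares for motifs that start with GGAC and open circles for the others. The shaded band is within 50 nt. MCM2 at the stop codon has 3 motifs from 18 nt before to 6 nt after the peak, while its start peak has none in the band.

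MCM4, the third catalytic core subunit (chromosome 8, 49036047 to 49052621, plus strand), had no peak at a quantile of 0.983, and MCM8 (chromosome 20, 5879298 to 5923831, plus strand) had none at 0.717. The table does not show whether reads were too few for a call. In the first 200 nt after the stop codon, the transcripts of MCM10 held 5 RRACH motifs, those of MCM5 4, and those of MCM2, MCM3 and MCM6 3 each. MCM8 held 4, the nearest 5 nt after the stop codon. MCM4 held none in any of its complete coding transcripts, and where the 3′ UTR reached that far its first RRACH lay 287 nt after the stop codon. MCM7, which had no peak by the stop codon, held none in its 3′ UTR of 151 nt. Of 14213 coding genes of the table with at least 200 nt of 3′ UTR, 94.2% held RRACH in that stretch, with a median of 3. MCM8, without a peak, thus held as many as MCM5 in that stretch. In the 50 nt up to the end of the stop codon, MCM2, MCM4, MCM7 and MCM8 held 1 RRACH each and MCM10 held 2. MCM3, MCM5 and MCM6 held none there. Nothing is drawn from the absence of these letters after the stop codon in MCM4 and MCM7.

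The other genes of the replication machinery were read in the same table. Of 51 such genes, 28 had a peak (54.9%) and 16 had a stop codon or 3′ UTR peak, and 3 had such a peak together with a start peak. Their median quantile was 0.822 and none was at the lowest quantile. With the lowest quantile left out, 45.8% of coding transcripts carried a peak. The share was 65.1% at 0.7 to 0.8, 71.3% at 0.9 to 0.98 and 61.5% at 0.98 and over. It is not given here for 0.8 to 0.9, where 0.822 lies. A stop codon or 3′ UTR peak was listed for 63.6% of coding transcripts with a peak. Together with a start peak it was listed for 8.18%. Nothing particular to these genes or to a role below is read from the counts. None of the 51 had a peak as high as that of MCM2, and the highest was 5.62, in POLD3, an accessory subunit of DNA polymerase delta.

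Of 9 genes that load the helicase on origins or, as GMNN (geminin) does, inhibit that loading, 5 had a peak, GMNN among them at 2.78. The origin recognition subunits ORC2 (5.04) and ORC6 (4.98) and the loading factor CDT1 (4.59) led by score, and CDC6, the ATPase that acts with CDT1, had none at a quantile of 0.867, nor had ORC5 at 0.657. Among 8 genes listed as partners of the helicase or of MCM proteins, 4 had a peak. The 8 include MCM9, the partner of MCM8 in its separate helicase, which had none at 0.586. GINS1 (3.56) and GINS3 (2.65) belong to the GINS complex that joins the active helicase, and MCM3AP (3.48) binds MCM3. CDC45, which completes the active helicase, had none at 0.931, nor had MCMBP at 0.869. Of 8 origin firing genes 5 had a peak, led by DBF4 (5.19) and its kinase partner CDC7 (4.12), which phosphorylate the MCM hexamer, and by TICRR (3.13, with 6 peaks). DBF4B and TOPBP1 had none, at 0.822 and 0.790.

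Of 12 DNA polymerase and primase genes, 5 had a peak, with POLA2 (4.12) and POLE (4.11) after POLD3. POLD2 and POLD1 had none although their quantiles were 0.992 and 0.975. Of 11 genes for the sliding clamp, its loader, flap removal, ligation and single-strand binding, 7 had one, led by the clamp PCNA (4.66, at the transcript start), the loader subunit RFC2 (4.25) and RPA2 (4.20), while LIG1 and RFC4 had none at 0.966 and 0.897. Of 3 fork protection genes, CLSPN (3.36) and TIMELESS (3.19) had a peak and TIPIN had none at 0.643. High expression without a listed peak, as in MCM4, was thus also seen in POLD2, POLD1 and LIG1.

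**Figure D5:**
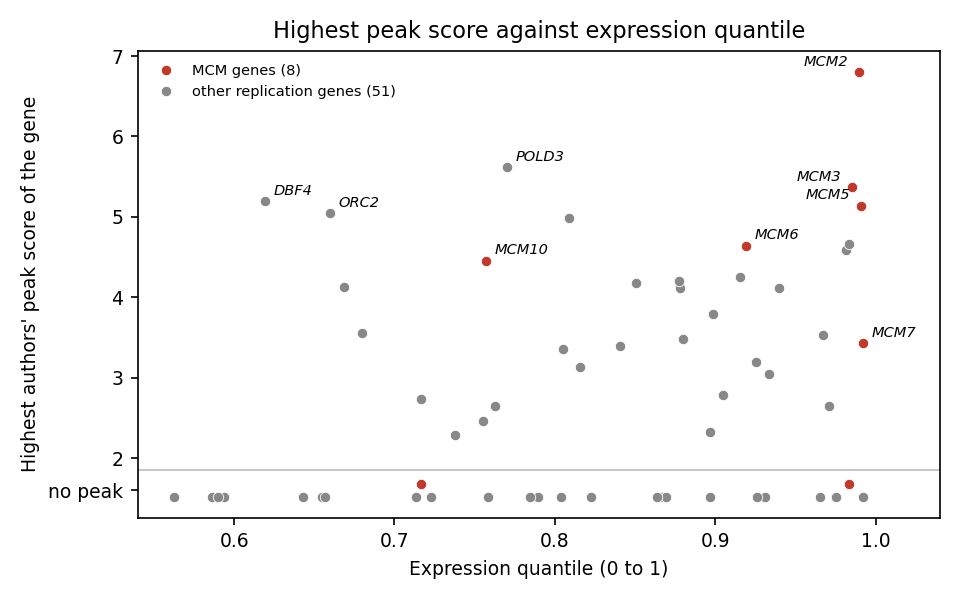
Highest authors' peak score of each gene against its expression quantile, for the 8 MCM genes (red) and 51 other replication genes (grey), with genes without a peak below the line. MCM2, MCM3 and MCM5 stand at the upper right, with 6.80, 5.37 and 5.14, and MCM4 is below the line at the right.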

How the data were processed

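Per the labels' protocols, polyadenylated RNA was fragmented, precipitated with an anti-m6A antibody and sequenced on the Genome Analyzer IIx. How reads were aligned and peaks called, and on which annotation and build, is not given in the sources used here. Per the file headers, the deposited table holds for each transcript the mean expression quantile (a fraction from 0 to 1), the deposited count of peaks, and the authors' score, position, exon and segment of each peak. No column is that of 1 library, so nothing was compared over the 4 m6A-IP and 3 input libraries and no test was run.

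The 8 genes were taken by symbol. They, the replication and marker lists and the descriptions were chosen with earlier results of these data known. Of the replication lists, the text names by role up to 3 genes with the highest score and up to 2 without a peak with the highest quantile. GMNN and MCM9 are named besides, for their roles.

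Each of the 6 genes with a peak was matched to a complete GENCODE release 29 coding transcript by strand, chromosome, exon number and exon length. Differences of the end exons had to account for the difference in genomic span, and the transcript with the smallest difference was used. Both ends were checked in this way for MCM3 and MCM6. For MCM2, MCM5 and MCM10 the 5′ end follows from the span, and for MCM7 the 3′ end does. Both hold only if introns are of equal length in both builds. For MCM7, 3 of 4 candidate transcripts share the sequence at the peak, and their start codons differ, so its distance to the start codon depends on the transcript chosen. No table start equalled a GRCh38 start. Python 3.11.15, pandas 2.3.3 and numpy 2.4.6 were used, and motif and position routines were tested on simulated data.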

Additional observations from a re-analysis of the deposited data

How the results depend on the processing

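Counting peaks with a score of at least 4 left 5 of the 9 MCM peaks, which are the 5 beyond the stop codon, in 5 genes. In the whole table, the upper quartile of scores was 4.29 around stop codons and 4.03 in the 3′ UTR. At the transcript start it was 3.22 and in the 5′ UTR 3.55, so the cut at 4 removed most of those peaks too. Shares of all transcripts with a peak at a score of at least 4 or 3 are not given here. The other 17 of 18 alternatives kept the values within 1.5 times. Among them were a score of at least 3 (8 peaks in 6 genes) and leaving out start peaks (6 peaks in 6 genes). RRACH within 25 nt (6 peaks) or 100 nt (9 peaks) and DRACH, with U also allowed first (8 peaks), were others. Of all positions of the 6 transcripts, 51.9% had RRACH within 25 nt, 95.4% within 100 nt, and 87.1% had DRACH within 50 nt. The 9 of 9 peaks at 100 nt are thus near the background. MCM2 ranked 22 under each ranking tried, and 21 of the other replication genes had a peak with a score of at least 3. Segments recomputed from the matched transcripts equalled the authors' for 9 of 9 peaks. The count for the hexamer alone (5 genes) was added after seeing the data. No paired analysis was possible because the table has no column for any replicate. Depth is unknown, the authors list no score under 2.00, and fragments of about 100 nt limit the resolution of positions.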
